A study of Mus musculus with 12 samples.

Results

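The 10 microRNAs (miRNAs) described here are mmu-miR-466c-5p, mmu-miR-466e-3p, mmu-miR-467a, mmu-miR-467a*, mmu-miR-467b, mmu-miR-467c, mmu-miR-467e, mmu-miR-669a, mmu-miR-669b and mmu-miR-669c, members of the cluster described in an intron of Sfmbt2 on mouse chromosome 2. The prefix mmu, for mouse, is left out from here on. They were picked by name from the 577 miRNA names on the array, as names of this cluster that gave a signal in these samples. Their signal across the cell lines is therefore the property by which they were chosen, and it is given as a description. Counts of members called in a fit of all miRNAs stand beside the share of all miRNAs called, are fixed in part by that choice, and support nothing. The array carries 15 further names of the miR-297, miR-466, miR-467 and miR-669 families, 25 with the members.

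The samples were 12 arrays, 3 for each of 4 cell lines that the labels derive from spontaneous breast cancers of female Balb/C mice, all recorded as wild type. 4T1 is labelled metastatic, and 4TO7, 168FARN and 67NR are labelled non-metastatic. The labels name no treatment and no altered gene, and each group is 1 cell line, so a property of the line cannot be told apart from its metastatic label. Total RNA was extracted with Trizol and 100 ng went onto each 1-colour Agilent mouse miRNA array, where labelled miRNAs bind to spots of short probes that a scanner then measures. Nothing in the labels tells if the 3 repeats of a line came from separate cultures, so the spread behind the p-values is that of these arrays and may be technical, and their number limits the precision of every value. Whether more cells or more RNA per cell carry a miRNA cannot be told apart.

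Sfmbt2 encodes a polycomb group protein, a member of the protein families that keep genes silent. In mouse embryos and placenta the gene is expressed from the paternal copy, and its intronic miRNAs form a large array of near-repeats found in rodents. The cluster is known for its expression in early embryos, in the placenta and in embryonic stem cells, and its deletion in mice impairs placental growth. A miRNA guides silencing proteins to messenger RNAs, mostly through its seed, bases 2 to 8.

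In the RefSeq annotation of build GRCm38.p6, 71 of the 81 miRNA genes named for the miR-297, miR-466, miR-467 and miR-669 families lie between the ends of Sfmbt2, 10 lie elsewhere and 1 other gene lies among them. Of the 71, 29 are miR-669 genes, 23 are miR-466 genes, 14 are miR-467 genes and 5 are miR-297 genes. Along the chromosome 13 of the 14 miR-467 genes are followed directly by a miR-466 gene, and the run miR-467, miR-466, miR-669 occurs 11 times. Several member names stand for many copies. RefSeq lists 12 genes for miR-669a, 10 for miR-467a and miR-467a*, 2 for miR-466c, and 1 each for miR-466e, miR-467b, miR-467c, miR-467e, miR-669b and miR-669c. An array signal adds up the copies that share a sequence and cannot say which copy was transcribed.

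Sfmbt2 has 2 annotated starts, and both promoters are shown as background. Whether the members were transcribed from either was not tested. The sequences are RefSeq's of build GRCm38.p6, on the plus strand, from 250 bases before to 50 after each start, with the dinucleotide CG in capitals.
Sfmbt2 start at chr2:10370201-10370500: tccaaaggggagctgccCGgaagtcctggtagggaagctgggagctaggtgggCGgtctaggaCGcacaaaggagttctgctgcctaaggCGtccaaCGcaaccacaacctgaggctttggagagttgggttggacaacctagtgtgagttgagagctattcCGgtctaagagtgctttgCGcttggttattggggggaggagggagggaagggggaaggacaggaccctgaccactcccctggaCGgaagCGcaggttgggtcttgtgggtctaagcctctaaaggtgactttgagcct
Sfmbt2 start at chr2:10372186-10372485: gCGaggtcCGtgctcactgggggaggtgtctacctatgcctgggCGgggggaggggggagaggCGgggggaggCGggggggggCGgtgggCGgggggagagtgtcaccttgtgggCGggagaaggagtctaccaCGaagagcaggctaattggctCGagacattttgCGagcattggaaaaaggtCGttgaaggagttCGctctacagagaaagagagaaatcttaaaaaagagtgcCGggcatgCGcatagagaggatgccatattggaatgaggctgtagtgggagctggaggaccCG
The first holds CG 9 times and the second 16 times. Of 32851 mouse promoters of the same 300 bases, 94.6% hold CG at least once, the median is 7, 45.8% hold it 9 or more times and 33.0% hold it 16 or more times. CG reads the same on both strands and was counted on 1. Neither methylation nor the Sfmbt2 messenger RNA was measured on these arrays.

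The file's probe annotation places the targets of the 10 members on chromosome 2 between positions 10389446 and 10430967 of build mm9, a stretch of 41522 bases. Each member has 2 probes, which differ by 1 base in the length of the target they span, 16 to 20 bases, and the longer one was the brighter for all 10. Some probes cannot separate names. Both probes of miR-466e-3p also list miR-466a-3p, miR-466b-3p, miR-466b-3-3p and miR-466c-3p, both probes of miR-467a* list miR-467d*, and both probes of miR-669b list miR-297a. RefSeq lists 11 genes for miR-466a, miR-466b and miR-466c and 3 for miR-297a. The signals of miR-466e-3p and miR-669b can therefore include more copies than the 1 gene of each name. The annotated targets of miR-467a (10402888 to 10402905) and miR-467b (10402886 to 10402903) share 16 bases.

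A probe was counted as read on an array when more than 50% of its spots were marked well above background by the scanner software. Between 166 and 187 miRNAs were read on the 4T1 arrays, 147 to 158 on those of 4TO7, 176 to 191 on those of 168FARN and at most 161 on those of 67NR. No spot was saturated. Values called signal below are the processed, unscaled intensities of the brighter probe, and levels are log2 of the signal relative to the array's own 75th percentile among 170 bright probes. That percentile was 889 to 1136 signal units on the 4T1 arrays, 600 to 671 on those of 4TO7, 791 to 1213 on those of 168FARN and 358 to 460 on those of 67NR. Slide 1 held all 67NR arrays and replicate 1 of 168FARN, and slide 2 the remaining 8 arrays.

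All 10 members were read on every array of 4T1 and 4TO7 and on no array of 168FARN or 67NR. On the 4T1 arrays 100% of the spots of their brighter probes were well above background, and on the 4TO7 arrays 293 of 293, against 0 of 284 on the 168FARN arrays and 0 of 283 on the 67NR arrays. Their signals ran from 25.5 to 178 units on the 4T1 arrays and from 32.3 to 201 units on the 4TO7 arrays, against -2.70 to 2.27 units on the 168FARN arrays and -3.46 to 4.64 units on the 67NR arrays. No signal of a member on an array of the first 2 lines overlapped any on an array of the other 2.

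**Figure D1:**
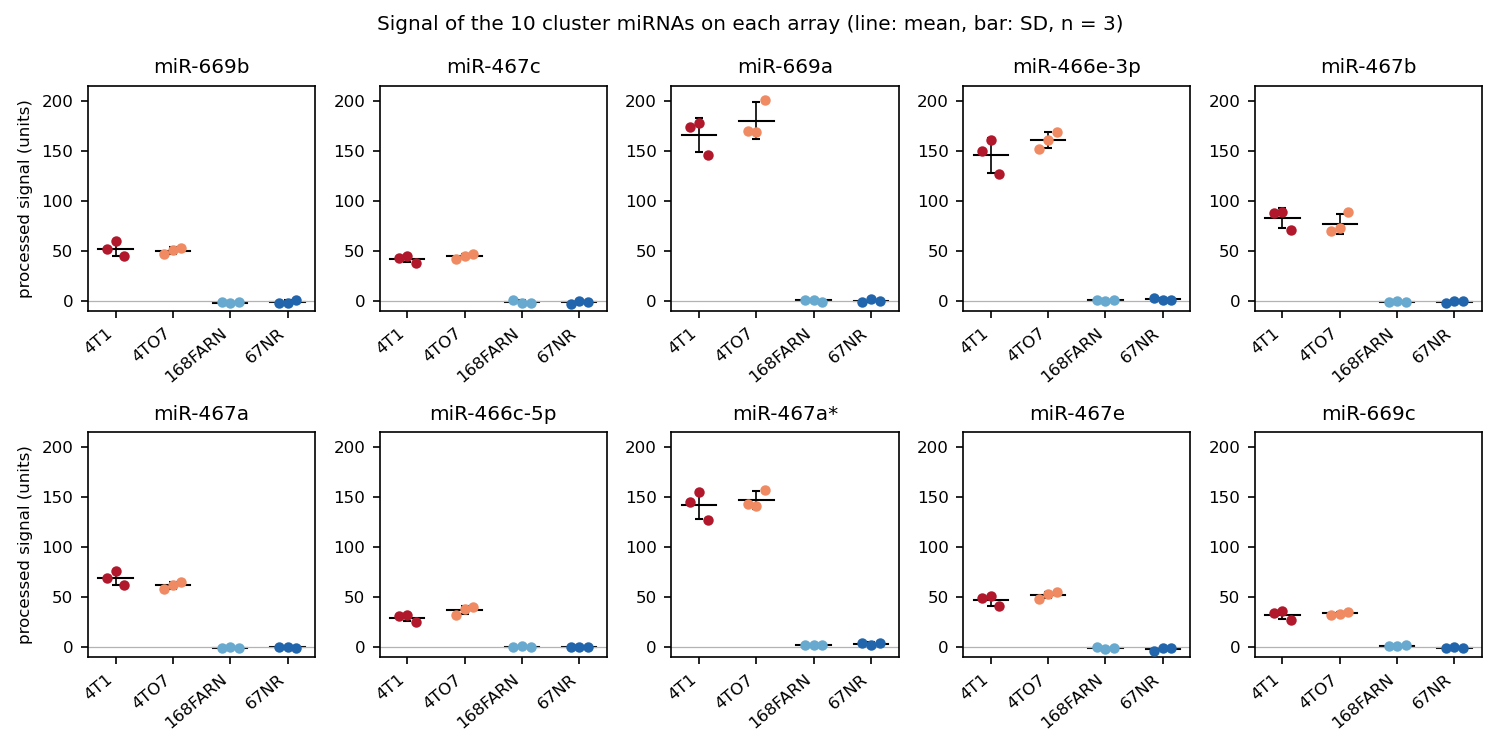
Processed signal (unscaled intensity units) of the 10 members on each array of 4T1, 4TO7, 168FARN and 67NR, with points for arrays, horizontal lines for means and bars for the SD (n = 3 arrays). Every member sits at 25.5 units or more on the 4T1 and 4TO7 arrays and at 4.64 units or less on the 168FARN and 67NR arrays.

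The miR-669 members come from the family with most copies in the locus. In mouse heart progenitor cells miR-669a has been reported to hold back muscle differentiation by repressing MyoD. Its signal was 174, 178 and 146 units on the 4T1 arrays and 169.6, 169.0 and 201 units on the 4TO7 arrays, against 1.18, 1.19 and -1.45 units on the 168FARN arrays and -1.26, 1.32 and -0.73 units on the 67NR arrays. All 6 arrays of 4T1 and 4TO7 were high and the ranges of these 2 lines overlapped. miR-669b gave 51.9, 59.8 and 44.9 units in 4T1 and 46.9, 51.2 and 52.8 units in 4TO7, against -2.53 to -1.33 units in 168FARN and -2.67 to 0.50 units in 67NR. miR-669c gave 34.0, 36.1 and 27.2 units in 4T1 and 32.5, 33.5 and 35.7 units in 4TO7, against 0.94 to 1.89 units in 168FARN and -0.85 to -0.05 units in 67NR. For both, too, 4T1 and 4TO7 overlapped each other and lay clear of the other 2 lines.

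miR-467 has been reported in mouse to repress thrombospondin-1, an inhibitor of blood vessel growth. miR-467a gave 68.8, 76.3 and 62.4 units in 4T1 and 57.8, 62.5 and 65.1 units in 4TO7, against -0.91, -0.06 and -0.72 units in 168FARN and 0.21, 0.12 and -0.35 units in 67NR. Its partner strand miR-467a*, the other arm of the same hairpins, gave 145.0, 155 and 128 units in 4T1 and 143.2, 141.6 and 158 units in 4TO7, against 2.11, 2.19 and 2.27 units in 168FARN and 4.64, 2.10 and 3.92 units in 67NR. Both names were thus read in the same 2 lines. The miR-467a* probes also list miR-467d* and the miR-467a target overlaps that of miR-467b, so the signals cannot be assigned to these 2 arms alone. The partner strand had the highest signals of any member in 67NR, where 0 of its spots were well above background.

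miR-467b, whose target overlaps that of miR-467a, gave 88.1, 88.9 and 71.2 units in 4T1 and 70.1, 72.9 and 88.7 units in 4TO7, against -1.74 to -0.28 units in 168FARN and -2.07 to -0.02 units in 67NR. miR-467c gave 42.5, 45.0 and 38.2 units in 4T1 and 42.2, 45.3 and 46.6 units in 4TO7, against -2.70 to 0.80 units in 168FARN and -3.12 to -0.65 units in 67NR. miR-467e gave 49.4, 51.3 and 40.9 units in 4T1 and 48.7, 53.3 and 55.0 units in 4TO7, against -2.19 to -0.25 units in 168FARN and -3.46 to -0.96 units in 67NR. In all 3 the ranges of 4T1 and 4TO7 overlapped and no array of 168FARN or 67NR came near them.

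The miR-466 members come from opposite arms of their hairpins. miR-466e-3p, which stands for 5 names on its probes, gave 150.2, 161 and 127 units in 4T1 and 152, 161 and 169 units in 4TO7, against 1.19, -0.63 and 0.98 units in 168FARN and 2.68, 0.94 and 0.45 units in 67NR. miR-466c-5p gave 31.1, 32.7 and 25.5 units in 4T1 and 32.3, 38.3 and 39.8 units in 4TO7, against -0.21 to 1.08 units in 168FARN and -0.003 to 0.44 units in 67NR. On each 4T1 array it was the lowest of the members, and 2 of its 3 4TO7 arrays lay above all 3 of 4T1.

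Within a line the arrays moved together across the members. 4T1 replicate 3 was the lowest 4T1 array and replicate 2 the highest for 10 of 10 members, and 4TO7 replicate 3 was the highest 4TO7 array for 10 of 10. The array percentiles had the same order, 889 for 4T1 replicate 3 and 1136 for replicate 2, and 671 for 4TO7 replicate 3. After scaling, the SD over the 3 arrays of a line was 0.01 to 0.08 (log2) for the members in 4T1 and 0.02 to 0.11 in 4TO7. The spots of 1 member on 1 array had a coefficient of variation of at most 13.3% in 4T1 and 12.7% in 4TO7.

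The shorter probes of the members showed the same lines. They were read on no array of 168FARN or 67NR for any of the 10 members. In 4T1 7 of 10 were read on all 3 arrays and the other 3 on some, and in 4TO7 8 of 10 were read on all 3 arrays. The exceptions were miR-467c (2 of 3 arrays in 4T1), miR-669b (2 of 3 in 4T1 and 2 of 3 in 4TO7) and miR-669c (2 of 3 in 4T1 and 0 of 3 in 4TO7), whose shorter probes gave 12.8 to 22.6 units.

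Because no member was read in 168FARN or 67NR, each comparison with those lines gives only a lower bound. It sets the mean level of the read line over the mean, across the unread arrays, of the higher of the lowest level read there and the member's own. Against 168FARN, the bounds for 4T1 ran from at least 1.93-fold (miR-466c-5p) to at least 10.8-fold (miR-669a), with a median of 3.95 over the 10 members. For 4TO7 against 168FARN they ran from at least 3.65-fold (miR-669c) to at least 19.3-fold (miR-669a), with a median of 6.14. The bounds follow how bright the probe is and how low the unread array could read, so they give no order of the true changes.

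Against 67NR the bounds were lower, since the smaller percentile of the 67NR arrays raises the lowest level that could be read there after scaling. That level was -5.08 to -4.64 (log2) on the 67NR arrays, against -6.51 to -5.64 on those of 168FARN. For 4T1 against 67NR, 8 members had bounds of 1.14 to 4.53 and 2, miR-466c-5p and miR-669c, had none above 1. For 4TO7 against 67NR all 10 had one, from 1.53 to 8.09. With the normexp background correction, which adds 50 units to every spot before scaling, the fitted difference of 4T1 against 67NR turned below 0 for 7 of the 10 members, miR-466c-5p, miR-467a, miR-467b, miR-467c, miR-467e, miR-669b and miR-669c.

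Set into limma's fit over all 224 tested miRNAs, with values below a floor of -5.58 (log2) set to it, 10 of 10 members were called higher in 4T1 than in 168FARN, where 34.4% of all tested miRNAs were called higher, and 10 of 10 higher in 4T1 than in 67NR, where 32.1% were. The counts for 4TO7 were 10 of 10 against 168FARN, beside 35.3% of all, and 10 of 10 against 67NR, beside 31.7%. Since the members were chosen on these signals, nothing is read from these counts. The floor lies below the lowest levels read on the 67NR arrays, -5.08 to -4.64 (log2). miR-466c-5p and miR-669c, counted as higher in 4T1 than in 67NR, had no bound above 1 there. The floored differences had a median over the members of 1.47 (log2) for 4T1 and 2.11 for 4TO7 against either line, equal because both lay at the floor. Medians of all tested miRNAs were 0.00 against 168FARN for both lines, and -0.05 for 4T1 and -0.12 for 4TO7 against 67NR. Between 168FARN and 67NR, with no member read in either, 0 of 10 members were called in either direction, beside 87.9% of all tested miRNAs.

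168FARN is the line whose arrays lay on both slides. Its replicate 1, on the slide of 67NR, read 0 of 10 members (-1.56 to 2.11 units), and its replicates 2 and 3, on the slide of 4T1 and 4TO7, also read 0 of 10 (-2.70 to 2.19 and -1.89 to 2.27 units). The 67NR arrays were all on the first slide, so no 67NR comparison with 4T1 or 4TO7 could be made within a slide.

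Between 4T1 and 4TO7, where all members were read on both sides, the result depended on the scaling. In unscaled signal the ranges of the 2 lines overlapped for 10 of 10 members, and the ratio of the means, 4T1 over 4TO7, was 0.81 (miR-466c-5p) to 1.12 (miR-467a). After scaling all 10 were lower in 4T1, with levels that did not overlap those of 4TO7. How many of all miRNAs separate in this way was not counted, so nothing is read from the overlap before or after scaling. miR-669a had a level of -2.64 ± 0.04 in 4T1 and -1.81 ± 0.06 in 4TO7 (log2, SD, n = 3 arrays each), a difference of -0.84 ± 0.03 (SE). On the 168FARN and 67NR arrays, which share the fit's estimate of spread, every member lay at the floor with an SD of 0. The SEs of the members can therefore be too small. The smallest difference was that of miR-467a, -3.91 ± 0.08 in 4T1 and -3.35 ± 0.04 in 4TO7, at -0.56 ± 0.04, and the widest that of miR-466c-5p, -5.13 ± 0.01 in 4T1 and -4.10 ± 0.11 in 4TO7, at -1.03 ± 0.04.

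The 8 other members lay between these, from -0.88 to -0.62. All 10 members were called lower in 4T1 in limma's fit, beside 35.7% of all tested miRNAs. Without scaling 0 of 10 were called in either direction, beside 50% of all. These are the signals on which the members were chosen, and nothing is read from either count. Of the unscaled differences 7 were below 0 and 3 (miR-467a, miR-467b and miR-669b) above it.

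The shift of all miRNAs between scalings was set aside by taking the 127 miRNAs outside the 4 families that were read on all 6 arrays of both lines. Their median difference, 4T1 minus 4TO7, was 0.61 (log2) in unscaled signal and -0.11 after scaling. Relative to it the members' median was -0.69 and their range -0.92 to -0.45, and 10 of 10 were below it. The unscaled signal, the main and 2 other percentile scalings differ by 1 factor per array. They give the same values here by construction, and nothing is read from that. With quantile scaling the members' range relative to the median was -0.99 to -0.53, and with the normexp background correction it was -0.50 to -0.32. Of the 127 miRNAs, 22 lay below the highest member and 4 below the lowest, so the members were not alone at this end of the range.

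**Figure D2:**
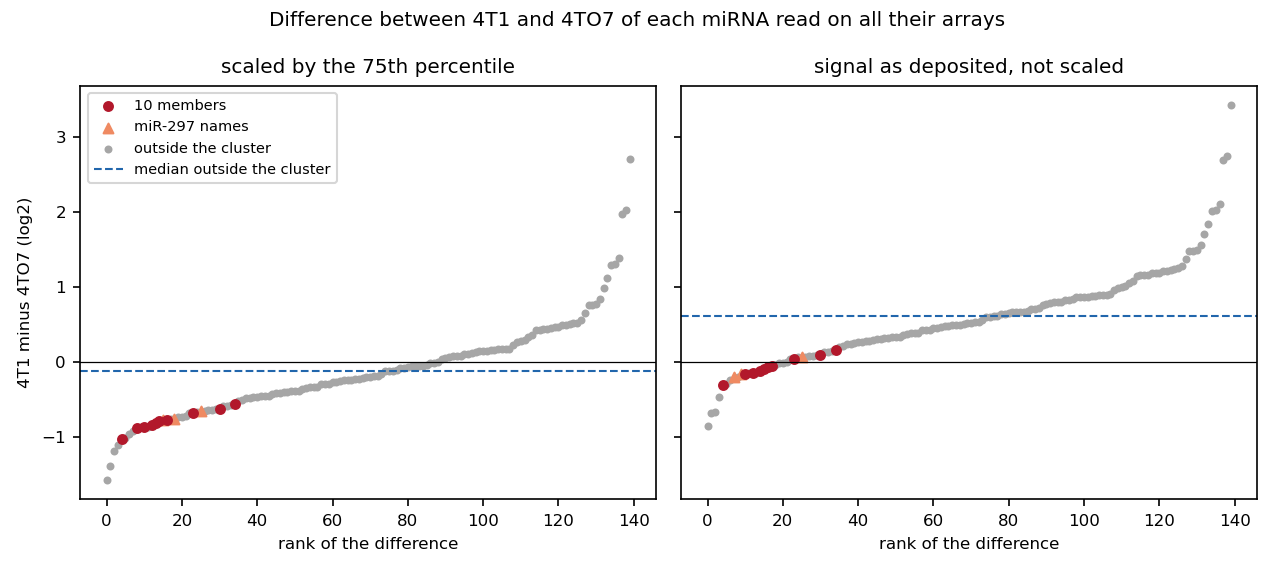
Difference 4T1 minus 4TO7 (log2) of each of 140 miRNAs read on all 6 arrays of both lines, in order of size, after scaling (left) and in unscaled signal (right), with the 10 members, 3 miR-297 names and 127 others as points and the median of the others as a dashed line. The members lie below the dashed line in both panels, and 3 of them lie above 0 in the right panel.

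Of the 577 names on the array, 13 were read on all arrays of 4T1 and 4TO7 and on none of 168FARN and 67NR. These were the 10 members with miR-297a, miR-297b-3p and miR-297c, and no name from outside the 4 families was among them. For comparison, 96 miRNAs were read on all 12 arrays, 25 on the 168FARN arrays alone and 14 on the 67NR arrays alone, with no name of these families in any of the 3 sets.

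miR-297a gave 79.3, 84.5 and 63.7 units in 4T1 and 66.3, 72.5 and 76.7 units in 4TO7, against -3.79 to -1.49 units in 168FARN and -2.63 to 0.62 units in 67NR. RefSeq lists 3 genes for miR-297a, all within Sfmbt2, while the file places this probe's target on chromosome 10 (42855314 to 42855332, mm9). Its level was at least 4.92-fold higher in 4T1 and at least 7.72-fold higher in 4TO7 than in 168FARN. It entered the fit only through 4T1 and 4TO7 and all 168FARN arrays lay at the floor, so no test of these differences is given. The list of other names was drawn up with earlier results of these data known.

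miR-297b-3p gave 16.6, 23.1 and 19.7 units in 4T1 and 21.6, 26.4 and 20.2 units in 4TO7, against at most 3.12 units in 168FARN and 4.02 units in 67NR. Of its 4 probes only the brightest was read on any array. The next one gave at most 8.55 units in 4T1 and 9.15 units in 4TO7. All its probes also list miR-297a* and miR-297c*. miR-297c gave 19.9, 22.9 and 17.7 units in 4T1 and 19.6, 23.7 and 24.6 units in 4TO7, against at most 0.41 units in 168FARN and -0.88 units in 67NR. These 2 names were read close to the limit, and the bounds over 168FARN were 1.28 and 1.31 for 4T1 and 2.43 and 2.42 for 4TO7. In 4T1 their levels of -5.55 and -5.58 lay at or next to the floor. Calls against 168FARN turned with that floor, for both names in 4TO7 when it was doubled and for both in 4T1 when it was halved, so none is given. After scaling all 3 miR-297 names lay lower in 4T1 than in 4TO7. The differences were -0.65 ± 0.03 for miR-297a, -0.75 ± 0.10 for miR-297b-3p and -0.78 ± 0.05 for miR-297c (log2, SE). In 4T1 miR-297c lay at the floor on 3 arrays and miR-297b-3p on 2, so their differences set the floor against 4TO7. All 3 names entered the fit only through 4T1 and 4TO7 and lay at the floor in 168FARN and 67NR, so no test is given. Without scaling miR-297a differed by 0.07.

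The 12 remaining names were not read on all arrays of any line. Their signals stayed at or below 15.5 units in 4T1, 14.7 units in 4TO7, 10.9 units in 168FARN and 11.9 units in 67NR. The nearest to being read was miR-466h, with 15.5, 14.5 and 11.1 units in 4T1 (2 arrays read) and 14.7, 14.6 and 14.7 units in 4TO7 (1 array read), against -1.92 to 0.04 units in 168FARN and -1.69 to -0.36 units in 67NR. It lies just outside the group, and miR-466c-5p, at 25.5 to 32.7 units in 4T1, lies just inside.

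Read and unread names were interspersed along the locus. Of 24 names with targets on chromosome 2, 12 were read, 5 unread names lay between read ones, 2 before and 5 after them. miR-467b* and miR-467e* were not read although their partner strands miR-467b and miR-467e were. Probe design moved with being read. All 10 members have 2 probes, with 6 to 10 spots left per probe and array, while the 12 unread names have 4 probes with 4 to 5 spots each. The split was not complete, since of the read miR-297 names miR-297c has 2 probes, miR-297a 3 and miR-297b-3p 4. Over the array, 59.4% of 276 miRNAs outside the families with 2 probes were read on all arrays of at least 1 line, beside 16.5% of 261 with 4 probes. The part of probe design in which names were read was not tested.

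**Figure D3:**
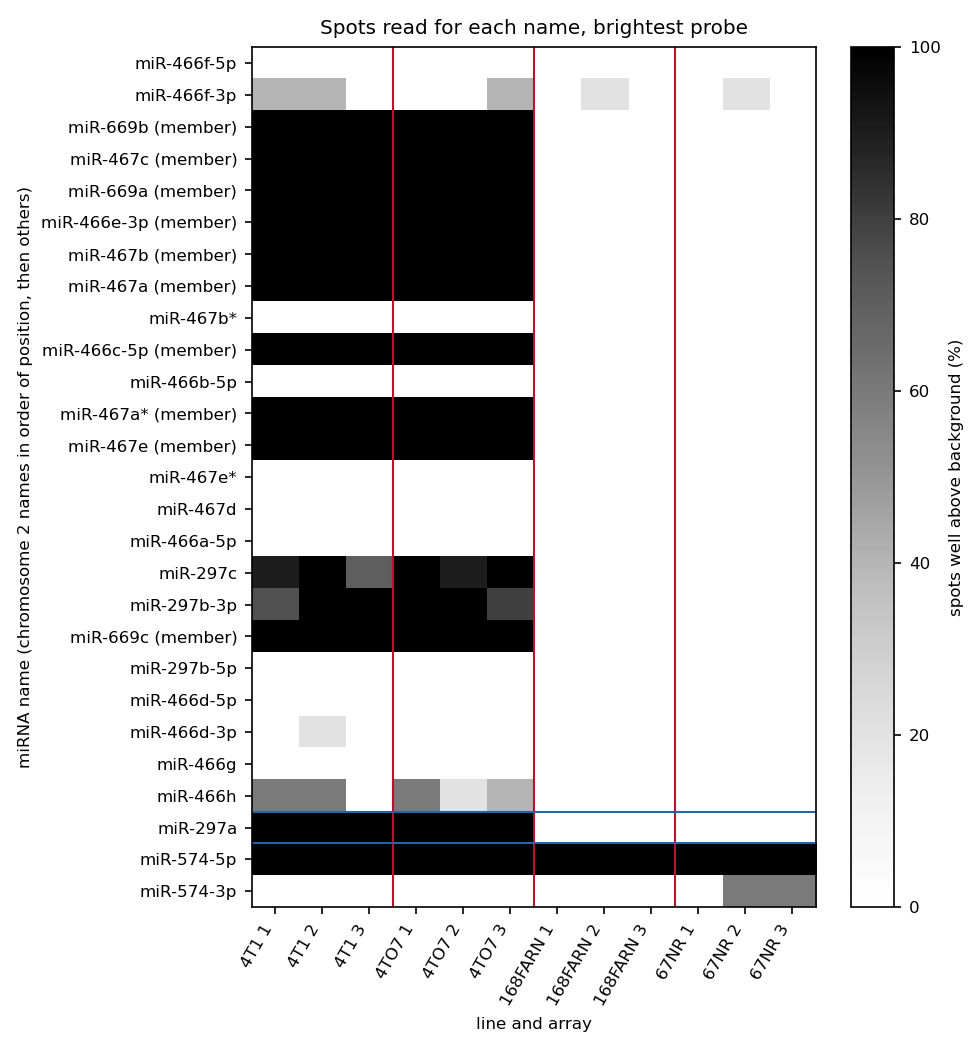
Share of spots well above background (%, grey scale) on each of the 12 arrays for 24 chromosome 2 names in order of position, then miR-297a, miR-574-5p and miR-574-3p, all by their brightest probe. The 10 members are at 100% on every 4T1 and 4TO7 array and at 0% on every 168FARN and 67NR array, while miR-574-5p is at 100% on all 12.

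Many miRNAs of the cluster are known to be rich in UG repeats, and a UG-rich miRNA from another locus was set beside them as a description. miR-574-5p lies on chromosome 5 and its sequence in RefSeq (GRCm38.p6, chr5:64970328-64970350, plus strand) holds UG 9 times, shown with the seed in capitals.
mmu-miR-574-5p: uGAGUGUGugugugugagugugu
Its signal was 52.4, 51.7 and 44.3 units in 4T1 and 49.5, 51.4 and 51.7 units in 4TO7, against 70.6, 48.6 and 43.6 units in 168FARN and 50.2, 55.7 and 47.4 units in 67NR. It was read on all 12 arrays, with overlapping ranges in the 4 lines. The members' own mature sequences were not read here, so their UG content was not compared with it. Its scaled differences were -0.76 ± 0.07 for 4T1 against 4TO7 and -1.35 ± 0.07 for 4T1 against 67NR (log2, SE; adjusted p = 2.74e-06 and 4.78e-09 in limma's fit). Both depended on the scaling. Without it 4T1 minus 4TO7 was -0.04 (log2), and the mean signals were 49.5 units in 4T1, 50.9 in 4TO7 and 51.1 in 67NR. Its partner arm miR-574-3p was read on 2 of the 3 arrays of 67NR and on no array of the other lines.

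The 5 tested miRNAs outside the families whose line means were most like those of the members were miR-183*, miR-805, miR-20a*, miR-183 and miR-146b, at root-mean-square distances of 0.35, 0.55, 0.60, 0.65 and 0.67 (log2) from the members' mean over the 4 lines, out of 211 compared. Levels at the floor have no order, so this likeness is a description. After the main scaling miR-183* had levels of -3.81 in 4T1 and -3.54 in 4TO7, against -5.01 in 168FARN and -5.24 in 67NR, and was read on 3, 3, 3 and 1 of their arrays. Its difference between 4T1 and 4TO7 was -0.27 ± 0.12 (log2, SE). It was picked for its line means, so no test is given. miR-20a* was unread in 67NR and read on 2 of 3 arrays in 168FARN. Of these 5, none was unread on all arrays of both 168FARN and 67NR.

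**Figure D4:**
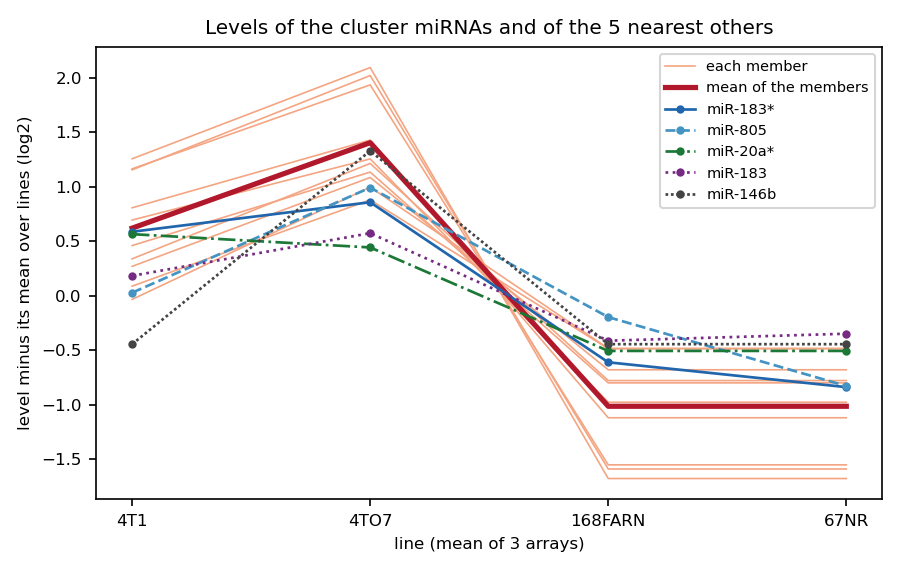
Mean level of each line minus the mean over the 4 lines (log2, n = 3 arrays per line) for each member, for the mean of the 10 members and for the 5 miRNAs outside the families nearest to it. The members' mean is 0.62 in 4T1, 1.41 in 4TO7 and -1.01 in both 168FARN and 67NR, where every member is at the floor.

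No marker list of another cell type had a member read in 4T1 and 4TO7 alone. None of 6 epithelial miRNAs (the miR-200 family with miR-205) was read on all arrays of any line, and the sum of their signals was -7.86 to -2.52 units in 4T1, 0.68 to 1.78 in 4TO7, -5.27 to 0.61 in 168FARN and 21.1 to 37.3 in 67NR. The epithelial miRNAs that would mark the labelled breast cancer origin were thus read on no array of 4T1, 4TO7 or 168FARN, and 2 of them were read on some 67NR arrays. Of 5 placental or stem cell miRNAs (miR-290-5p, miR-291a-3p, miR-294, miR-295 and miR-302a), which mark cells where the cluster is known to be active, 0 were read on all arrays of 4T1, 4TO7 or 168FARN and 1, miR-290-5p, on those of 67NR. Their summed signal was 13.1 to 20.2 units in 4T1 and 3.58 to 7.11 units in 4TO7, against 6.66 to 10.5 units in 168FARN and 16.2 to 26.5 units in 67NR. In 4T1 1 of them was read on some arrays, and in 4TO7 and 168FARN none on any. The part of other cell types in the members' signals was not tested. Of 5 mesenchymal miRNAs on the array, 3 were read in 168FARN (miR-143, miR-199a-5p and miR-140) and 1 (miR-140) in each other line. 168FARN alone read the haematopoietic miR-142-3p (1 of 6 in its list) and the muscle miR-206 (1 of 3). Of 2 endothelial miRNAs, miR-126-3p was read in 4T1, 4TO7 and 67NR.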

How the data were processed

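The deposited scanner files hold 12493 spots per array. Per the file headers, their intensity values are processed signals with the background already subtracted, and nothing was scaled across arrays. The deposited value table differs from them by 0. Control spots and 284 to 508 flagged spots per array were dropped, the remaining spots of each probe averaged, and signals expressed relative to the array's 75th percentile among 170 probes read on all 12 arrays. Each miRNA was taken from its brightest probe. Values below 0.0209 (log2 -5.58), a floor set from the lowest levels read on the arrays, were raised to it before log2 was taken. The 224 miRNAs read on all 3 arrays of at least 1 line entered 1 limma fit of the 4 lines (limma 3.58.1, R 4.3.3), with calls at a two-sided Benjamini-Hochberg adjusted p below 0.05. The fit was tested on simulated data.

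The members and lists were chosen with earlier results of these data known. Named are the members, other names of the families, miR-574-5p, miR-574-3p and the 5 most like miRNAs. The further listed names miR-1187 and miR-1192 were not found among the names on the array. Alternatives were other scalings, normexp (offset 50), gene-level totals, other probes, filters and floors, slide or replicate number as a term, and each array left out. A percentile over probes read in 4T1 and 4TO7, the fit without 67NR, and slide 2 alone were added after the data were seen. Deviations from the line means correlated at -0.80 to 0.56 (median 0.008) between same-numbered arrays of different lines. Between differently numbered ones the correlations were -0.69 to 0.86 (median 0.015), so the numbers were not taken to pair samples.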

Additional observations from a re-analysis of the deposited data

How the results depend on the processing

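Nothing is read from the members' counts, since they were chosen on these signals. The members' counts of calls were 10 for each comparison of 4T1 or 4TO7 with 168FARN, 67NR or each other and 0 between 168FARN and 67NR. They kept these values with slide as a term, with the replicate number as a block and with each array left out. In the 5 comparisons with calls, 60.3% to 79.5% of all tested miRNAs were called either way with the block, and 60.3% to 79.5% with the slide term. With each array left out, 129 to 139 of the 224 tested miRNAs were called for 4T1 against 4TO7. The ranges were 159 to 168 for 4T1 against 168FARN and 177 to 180 for 4T1 against 67NR. They were 158 to 168 for 4TO7 against 168FARN, 177 to 181 for 4TO7 against 67NR and 192 to 196 for 168FARN against 67NR. Without scaling 0 members were called between 4T1 and 4TO7, beside 50% of all, with values above 0 for miR-467a (0.16), miR-467b (0.10), miR-669b (0.046) and miR-297a (0.070). With the second brightest probe 8 members were tested, of which 6 were called for 4T1 against 168FARN, beside 73.0% of all, and 6 against 67NR, beside 79.5%. The gene-level total signal called 1 member between 168FARN and 67NR, beside 87.5% of all. The normexp correction, which adds 50 to every spot before the scaling and so lifts unread values most where the percentile is low, called 10 there, beside 90.2% of all, and turned 4T1 against 67NR for miR-466c-5p (-0.65), miR-669c (-0.57), miR-467c (-0.43), miR-467e (-0.35), miR-669b (-0.29), miR-467a (-0.13), miR-297a (-0.048) and miR-467b (-0.0063), and 4TO7 against 67NR for miR-297b-3p (-0.14) and miR-297c (-0.044).

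Nothing is read from the counts of the 3 other cluster names either. They were listed with earlier results known and lay at the floor in 168FARN and 67NR. Shares of all tested miRNAs called either way stand beside them, except for the changed floors. For 4T1 against 4TO7, in place of 3, 0 were called without scaling, beside the share given above, and 1 with the floor doubled. For 4T1 against 168FARN and against 67NR, 1 each was called in the main fit. Without scaling 3 were called in each, beside 64.3% and 75.9% of all, and 3 with the floor halved. Gene-level totals called 2 in each, beside 77.7% and 83.9%, and normexp 2 in each, beside 63.8% and 92.9%. For 4TO7 against 168FARN and 67NR 1 was called with the floor doubled, in place of 3. Normexp called 1 for 4TO7 against 67NR in place of 3, beside 83.9% of all. Between 168FARN and 67NR it called 3 in place of 0, beside 90.2%. miR-574-5p turned for 4T1 against 168FARN with the percentile of all probes (0.023) and with quantile scaling (0.20), and without scaling for 4TO7 against 168FARN (-0.061) and 168FARN against 67NR (0.058). The cause of these changes was not tested. Signal close to background limits miR-297b-3p, miR-297c and miR-466h, and unread lines allow no level below the lowest read.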
